A study of Homo sapiens with 70 samples.

Results

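The small leucine-rich proteoglycans (SLRPs) are secreted matrix proteins built around a run of leucine-rich repeats. The genes described here were *DCN* (decorin), *LUM* (lumican), *BGN* (biglycan), *FMOD* (fibromodulin), *OGN* (osteoglycin), *ASPN* (asporin), *PRELP*, *PODN* (podocan) and *OMD* (osteomodulin), 9 genes taken by name from the 44503 genes of 3 RNA-seq count tables. The tables cover 70 libraries in 11 groups. The first experiment used IMR90 human lung fibroblasts, all carrying the pLNCX2 ER:HRAS G12V construct, an oncogenic RAS fused to an oestrogen receptor domain that 4-hydroxytamoxifen (4OHT) switches on. Growing cells (Grow) had no 4OHT, and cells in oncogene-induced senescence (OIS, labelled RIS) had 100 nM 4OHT for 6 days. Each state carried the pMSCV miR empty vector (Grow, OIS) or the same vector with shHMGA1 (Grow-shA1, OIS-shA1), with 8 libraries a group. *HMGA1* encodes an architectural chromatin protein that binds the minor groove of A/T-rich DNA. In the second experiment, the same ER:HRAS G12V fibroblasts carried pSuper and pMSCV miR vectors together, with 5 libraries a group: growing with both empty (Grow-v-v), OIS with both empty (OIS-v-v), OIS with pSuper shCEBPB and empty pMSCV miR (OIS-shCEBPB), OIS with empty pSuper and pMSCV miR p53 (OIS-shp53), and OIS with both hairpins (OIS-shCEBPB-shp53). *CEBPB* encodes a transcription factor of the senescence secretory programme. The third experiment compared the non-small cell lung carcinoma line H1299 with the empty pMSCV miR vector (7 libraries) and with shHMGA1 (H1299-shA1, 6 libraries). IMR90 cells were grown in 5% oxygen and H1299 cells in atmospheric oxygen, both with 10% fetal calf serum. Every IMR90 group was of cultured cells that carried the RAS transgene, switched on in the OIS groups alone, and each target had a single named hairpin construct.

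SLRPs coat collagen fibrils and set their spacing and thickness, and several hold growth factors in the matrix. Decorin and biglycan, the class I members, carry chondroitin or dermatan sulphate chains, and lumican and fibromodulin, of class II, carry keratan sulphate or plain oligosaccharides. Lung fibroblasts are a main source of decorin, lumican and biglycan, and senescent fibroblasts are known to remodel the matrix around them by secreting proteases and cytokines.

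The members lie in few places of the genome. In hg19, the build of the tables, *DCN* (ENSG00000011465) spans 12:91539025-91576900 on the minus strand and *LUM* (ENSG00000139329) lies 33.4 kb away at 12:91496406-91505608, also on the minus strand. *FMOD* (ENSG00000122176, 1:203309756-203320617, minus strand) and *PRELP* (ENSG00000188783, 1:203444956-203460480, plus strand) are 124.3 kb apart. *OGN* (ENSG00000106809, 9:95146249-95166978), *OMD* (ENSG00000127083, 9:95176527-95186743) and *ASPN* (ENSG00000106819, 9:95218487-95244788) form a row on the minus strand. *BGN* (ENSG00000182492, X:152760397-152774263, plus strand) and *PODN* (ENSG00000174348, 1:53527854-53551174, plus strand) stand alone. Counts were made over all annotated exons of a gene, UTRs included, without strand, so reads over the 467 exonic bases that *PODN* shares with an antisense gene on the minus strand (ENSG00000232993) could not be told apart.

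The stretches before the start sites of *BGN*, *PODN* and *FMOD* are shown because HMGA1 binds A/T-rich DNA and CEBPB is a DNA-binding factor, and because under shHMGA1 in growing cells *BGN* and *PODN* fell while *FMOD* rose. In OIS this contrast did not hold: *BGN* and *FMOD* both fell with shHMGA1 (log2 -1.11 and -0.59), and *PODN* did not pass the filter on low counts. Of the 9 genes, 6 had an entry in the RefSeq promoter table (GRCh38.p14, another build than the counts), and *DCN*, *LUM* and *OMD* were not among them. The 250 bases before the start are given 5′ to 3′ on the gene's strand. Capitals mark a GC box (GGGCGG on either strand) in *BGN* and *PODN*, and a C/EBP-type match (TTNNGNAA on either strand) in *FMOD*.
BGN (chrX:153494730-153494979, plus strand): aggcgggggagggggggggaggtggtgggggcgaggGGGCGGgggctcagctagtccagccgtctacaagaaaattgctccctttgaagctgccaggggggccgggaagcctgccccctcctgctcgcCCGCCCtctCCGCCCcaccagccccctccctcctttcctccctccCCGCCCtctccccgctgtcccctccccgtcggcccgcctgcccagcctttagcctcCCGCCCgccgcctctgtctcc
PODN (chr1:53061963-53062212, plus strand): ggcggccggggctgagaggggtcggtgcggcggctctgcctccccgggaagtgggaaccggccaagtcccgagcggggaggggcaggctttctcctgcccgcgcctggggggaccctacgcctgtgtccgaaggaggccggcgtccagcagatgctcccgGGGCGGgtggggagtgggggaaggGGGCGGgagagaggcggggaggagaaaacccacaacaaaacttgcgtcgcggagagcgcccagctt
FMOD (chr1:203351123-203351372, minus strand): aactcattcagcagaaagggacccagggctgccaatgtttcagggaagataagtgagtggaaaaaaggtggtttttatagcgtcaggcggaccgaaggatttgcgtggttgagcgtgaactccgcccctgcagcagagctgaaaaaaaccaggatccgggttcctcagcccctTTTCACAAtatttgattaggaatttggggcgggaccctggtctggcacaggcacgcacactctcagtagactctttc
A or T made up 26% of the *BGN* stretch and 27.6% of the *PODN* stretch, against a median of 42.0% over the 35116 promoters of the table, and 48.4% of the *FMOD* stretch. The *BGN* stretch held 5 GC boxes and no C/EBP-type match, and the *PODN* stretch 2 GC boxes and no C/EBP-type match. The *FMOD* stretch held 1 C/EBP-type match, 77 bases before the start, and 2 GC boxes. Over all promoters, 33.2% held a C/EBP-type match and 42.6% a GC box, so neither motif is rare, and a match is a string of letters, not a site of binding. Whether the A or T share or the motifs have a part in the response to a hairpin was not tested.

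Library totals lay between 13904974 and 24890797 counts except for OIS replicate 4, which held 1903607 and also stood apart from its group in the leading component of the spread within groups, and the members' fold changes that use it are given without it as well, while sums, shares and list values include it. In the second experiment, replicates 1 to 3 and replicates 4 and 5 formed separate sets in every group, and the labels do not say what distinguished them. Levels are given in CPM, a gene's count scaled to a common library total with TMM factors. The tables were scaled separately, so levels are compared within a table. *HMGA1* was 479 ± 39.1 CPM in Grow and 34.5 ± 3.89 in Grow-shA1 (SD, n = 8), and 736 ± 66.1 in OIS and 59.8 ± 5.74 in OIS-shA1. *CEBPB* was 296 ± 25.9 CPM in OIS-v-v and 35.5 ± 6.72 in OIS-shCEBPB (n = 5). All 8 fibroblast markers were above 1 CPM in every IMR90 group, with a summed level between 5730 and 51600 CPM, while the leukocyte list of 6 summed to at most 1.42 CPM, and the epithelial list of 7 summed to 43.9 to 140 CPM with 3 or 4 genes at 1 CPM or more (*KRT8* and *KRT18* among them), although *CDH1* and *ESRP1* were at 3 counts or fewer in most groups. Endothelial markers summed to 48.3 to 211 CPM, of which *TEK* made up 147.5 ± 6.61 in Grow. In H1299 cells, 2 of the 8 fibroblast markers reached 1 CPM.

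The IMR90 cells expressed 5 of the SLRP genes. Per kilobase of annotated exon, *BGN* stood first in Grow at 61.8 CPM per kb, before *LUM* at 32.2 and *DCN* at 21.1. *FMOD* had 2.91 and *PODN* 2.09. The exon length of *DCN* (8047 bases over all its isoforms, against 1661 for *BGN*) enters this value in full and is not the length of the transcripts made. The order therefore depends on the divisor: in CPM alone, *DCN* stood first in Grow (170.1), before *BGN* (102.6) and *LUM* (96.8). Which gene had the most transcripts was not settled. *PRELP*, whose product links collagen to basement membrane, had 341 counts over the 57 IMR90 libraries. *ASPN*, a class I member of cartilage and tendon, had 12 counts, *OGN* had 2 and *OMD*, a bone protein, had 1, all at or below the 3 counts a library taken here as the floor of detection (0.121 to 1.58 CPM) but for 1 Grow library with 5 *ASPN* counts. These 3 genes did not pass the filter on low counts. With no filter beyond 1 count, *ASPN* was called in OIS against Grow (log2 -2.54, SE 1.04, adjusted p = 0.0394) and in the interaction of shHMGA1 with OIS (4.06, SE 1.40, adjusted p = 0.0489), where its counts in the 4 groups were 5 in 1 Grow library and 2 in 1 OIS-shA1 library. *PRELP* was filtered out in the steps into OIS. Alternatives that tested it called it lower in OIS-v-v against Grow-v-v (edgeR adjusted p = 0.0178, 5 of 5 libraries below all of Grow-v-v). They did so too in OIS-shA1 against Grow-shA1 (adjusted p 0.000183 to 0.000547, 6 of 8 below all), but not in OIS against Grow (0.106 to 0.114). Only 1 of 5 OIS-v-v and 3 of 8 OIS-shA1 libraries were above the floor.

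**Figure D1:**
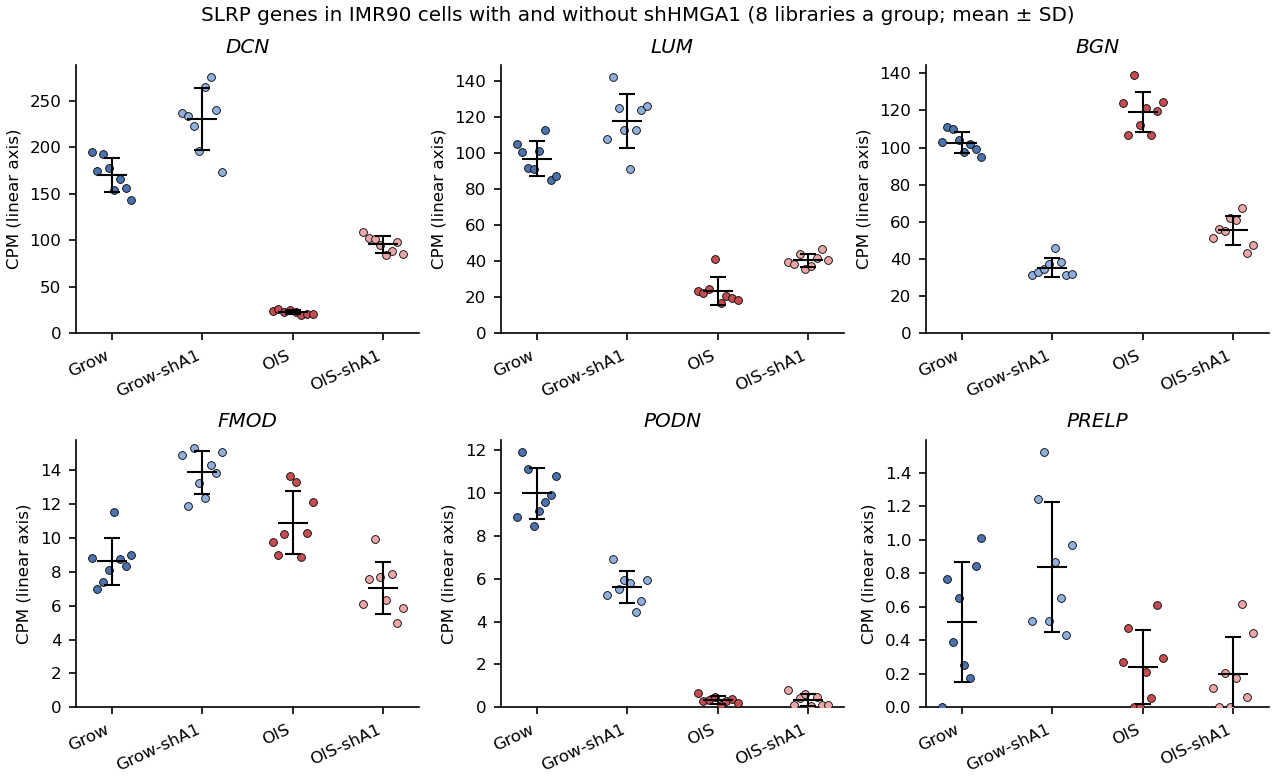
Levels of 6 SLRP genes in the shHMGA1 experiment, 1 panel a gene. The y axes give CPM on linear scales that start at 0, points are libraries (8 a group), and bars are the mean and SD. In OIS, *DCN* lies between 19.3 and 25.9 CPM, below all Grow libraries (143 to 195), and *BGN* is lower in both shHMGA1 groups than in either vector group.

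In OIS, decorin and lumican transcripts fell steeply and podocan was nearly lost, whereas biglycan and fibromodulin rose a little. Of the 9 genes, 5 passed the filter on low counts and all 5 differed between OIS and Grow, 2 higher and 3 lower. Over all 13304 genes tested, 74.8% were called, 38.8% higher and 35.9% lower, so a call alone is little information here and the sizes matter more. The median log2 fold change of the 5 was -2.14, beside 0.03 over all genes.

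*DCN*, whose product binds collagen I and holds TGF-β in the matrix, ran from 143 to 195 CPM in Grow with a median of 170.3, and from 19.3 to 25.9 in OIS with a median of 22.5. All 8 OIS libraries lay below all Grow libraries, a 7.51-fold fall (log2 fold change -2.91, SE 0.07, adjusted p = 3.39e-24 by edgeR's quasi-likelihood test). Fewer cells with the transcript and less of it per cell cannot be told apart in bulk RNA. *LUM*, a keratan sulphate proteoglycan best known from the cornea, went from 84.9 to 113 CPM (median 96.2) in Grow to 16.8 to 41.0 (median 21.6) in OIS. Again no libraries overlapped, and the fall was 4.40-fold (log2 -2.14, SE 0.09, adjusted p = 2.29e-18); the highest OIS value was the shallow replicate 4, without which the log2 fold change was -2.19. *PODN*, a class V member first described in kidney glomeruli and also made by smooth muscle, went from 8.46 to 11.9 CPM (116 to 218 counts) to 0.107 to 0.652 CPM (1 to 12 counts). Its 29.4-fold fall was the largest among the members (log2 -4.88, SE 0.18, adjusted p = 5.07e-20).

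*BGN*, which as a free protein is known as a ligand of Toll-like receptors, ran from 94.7 to 111 CPM in Grow and from 107 to 139 in OIS. The rise was 1.19-fold (log2 0.25, SE 0.05, adjusted p = 8.74e-05), and 6 of 8 OIS libraries lay above all Grow libraries. *FMOD*, which binds collagen and TGF-β, ran from 6.99 to 11.5 CPM in Grow and from 8.89 to 13.7 in OIS. It rose 1.26-fold (log2 0.33, SE 0.11, adjusted p = 0.00625), with 3 of 8 libraries above all of Grow. Without OIS replicate 4 the values of *BGN* and *FMOD* were 0.25 and 0.31, and those of *DCN* and *PODN* -2.92 and -4.90. Scaling by library size alone, which moves the median of all genes from 0.03 to 0.22, gave 0.43 and 0.52 for *BGN* and *FMOD*.

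Counted together, the 9 genes made up 389 ± 26.4 CPM in Grow and 177 ± 13.4 in OIS (SD, n = 8), and the make-up of that sum turned over. *BGN* held 26.4% of the SLRP counts in Grow and 67.5% in OIS, while *DCN* went from 43.8% to 12.7% and *LUM* from 24.9% to 13.2%. The fall of *DCN* and *LUM* went with that of the collagens their products bind: of 13 fibrillar and fibril-associated collagen genes, 12 were tested, 11 fell and 1 rose, with a median of -2. *COL1A2* went from 12160 ± 930.1 to 928 ± 94.97 CPM (log2 -3.69), and *COL1A1* from 23100 ± 2028 to 2458 ± 363 (log2 -3.21). Smooth muscle markers fell as well (3 of 4 tested, 1 rose), among them *ACTA2* at -3.66, as did 3 of 4 epithelial markers tested, while the cartilage gene *SOX9* rose (log2 0.94). The summed fibroblast markers went from 37300 to 46400 CPM in Grow to 5730 to 7040 in OIS. The part of these shifts in the SLRP values was not tested.

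With shHMGA1 in senescent cells, decorin and lumican were higher and biglycan and fibromodulin lower. Between OIS-shA1 and OIS, 4 members were tested, and *DCN* and *LUM* rose while *BGN* and *FMOD* fell. Over all 13327 genes, 35.9% were called, 18.8% higher and 17.1% lower. The median of the 4 was 0.16, beside 0.00 over all genes.

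*DCN* ran from 83.6 to 109 CPM in OIS-shA1, with a median of 96.4, more than 3 times the highest OIS library (25.9). It rose 4.28-fold (log2 2.10, SE 0.07, adjusted p = 4.46e-19) with all 8 libraries above all of OIS, yet every one of them stayed below the lowest Grow library (143). *LUM* ran from 35.8 to 46.8 CPM and rose 1.86-fold (log2 0.90, SE 0.09, adjusted p = 2.13e-08). Only 3 of 8 libraries lay above all of OIS because of the shallow replicate 4 (41.0 CPM). The other OIS libraries ended at 24.6, and without it the log2 fold change was 0.95.

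*BGN* ran from 43.2 to 67.2 CPM in OIS-shA1, below all OIS libraries, and its level there (55.3 ± 7.97, n = 8) was also under every Grow library. It fell 2.16-fold from OIS (log2 -1.11, SE 0.07, adjusted p = 2.75e-12). *FMOD* ran from 4.97 to 9.92 CPM and fell 1.5-fold (log2 -0.59, SE 0.12, adjusted p = 0.000328), with 7 of 8 libraries below all of OIS. *PODN* did not pass the filter: it ran from 0.0591 to 0.822 CPM (1 to 14 counts) against 0.107 to 0.652 CPM in OIS. *PRELP* was at 0.240 ± 0.223 CPM in OIS and 0.202 ± 0.220 in OIS-shA1 and did not pass either. Without OIS replicate 4, *DCN* had 2.10, *BGN* -1.12 and *FMOD* -0.57. In the same comparison, 3 of 4 smooth muscle markers fell (*LMOD1* -0.99, *CNN1* -0.71, *ACTA2* -0.27), 4 of 8 fibroblast markers rose and 2 fell (*FAP* 0.77, *PDGFRB* -0.64), and 1 of 3 epithelial markers fell (*CLDN4* -0.64). The part of these shifts in the SLRP values was not tested.

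In growing cells, the same knock-down raised *DCN*, *LUM* and *FMOD* and lowered *BGN* and *PODN*. Of 6 members tested between Grow-shA1 and Grow, 5 were called, 3 higher and 2 lower. Over 13072 genes, 29.9% were called, 14.8% higher and 15.1% lower. *BGN* fell most, from 94.7-111 CPM to 31.1-45.6 (2.91-fold, log2 -1.54, SE 0.06, adjusted p = 1.10e-15), with no overlap. *PODN* went from a median of 9.76 to 5.64 CPM (log2 -0.84, SE 0.10, adjusted p = 1.58e-07), also with no overlap.

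*FMOD* rose from a median of 8.54 to 14.1 CPM, all 8 libraries above all of Grow (log2 0.69, SE 0.09, adjusted p = 1.13e-06). *DCN* rose from a median of 170.3 to 236 CPM (log2 0.44, SE 0.08, adjusted p = 7.40e-05) and *LUM* from 96.2 to 119 (log2 0.28, SE 0.07, adjusted p = 0.00243). Of these, 7 and 5 of 8 libraries lay above all of Grow, and both changes are under 1.5-fold. *PRELP* was 0.511 ± 0.359 and 0.840 ± 0.389 CPM (log2 0.69, SE 0.38, adjusted p = 0.175). Markers moved here too: 6 of 8 fibroblast markers fell and 1 rose, 3 of 4 smooth muscle markers fell (*ACTA2* -0.58), 3 of 4 epithelial markers fell (*KRT8* -0.91) and the endothelial gene *TEK* rose (0.37). Their part in the SLRP values was not tested.

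Whether the effect of shHMGA1 depended on the state was tested with all 4 groups in 1 fit. The interaction was called for 4 of 6 members, 3 higher and 1 lower, against 23.6% of 13903 genes (12.2% higher, 11.4% lower). *DCN* gained 1.66 more log2 units from the knock-down in OIS than in growing cells (SE 0.11, adjusted p = 5.61e-15) and *LUM* 0.62 more (SE 0.12, adjusted p = 0.000162). *BGN* fell in both states but by 0.43 log2 units less in OIS (SE 0.10, adjusted p = 0.00146). *FMOD* was the member whose response turned: up in growing cells, down in OIS, a difference of -1.27 (SE 0.15, adjusted p = 3.33e-08). For *PODN* the difference of 0.93 did not pass (SE 0.40, adjusted p = 0.0849; 0.0264 by DESeq2), and for *PRELP* it was -1.03 (SE 0.74, adjusted p = 0.339). Without OIS replicate 4, the differences were 1.66 for *DCN*, 0.67 for *LUM*, 0.42 for *BGN*, -1.26 for *FMOD* and 0.94 for *PODN*, with the same genes called.

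Seen within the knock-down, the step into OIS was smaller for decorin. Between OIS-shA1 and Grow-shA1, 5 of 5 members tested were called, 1 higher and 4 lower. Over 13239 genes, 73.1% were called, 37.1% higher and 36% lower. *DCN* fell 2.40-fold (log2 -1.26, SE 0.08, adjusted p = 2.38e-14), *LUM* 2.89-fold (log2 -1.53) and *PODN* 15.6-fold (log2 -3.96, SE 0.26). *BGN* rose 1.58-fold (log2 0.66, SE 0.08, adjusted p = 8.42e-08). *FMOD* fell 1.95-fold (log2 -0.96, SE 0.11, adjusted p = 6.07e-09), in contrast to its rise between the vector groups.

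**Figure D2:**
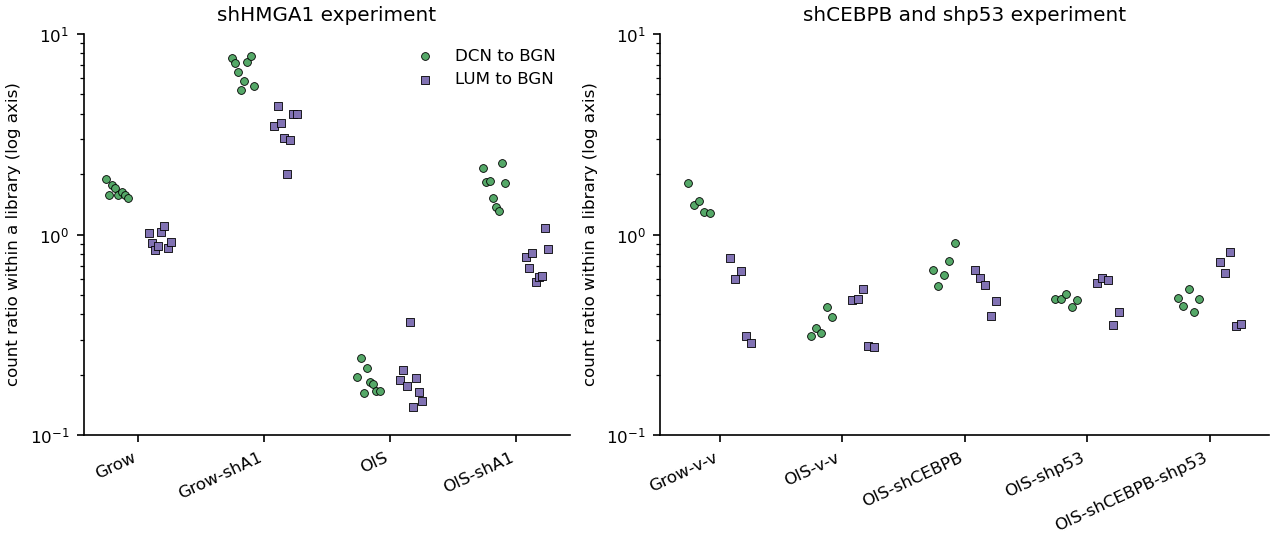
Ratio of *DCN* to *BGN* counts (circles) and of *LUM* to *BGN* counts (squares) in each IMR90 library, on log axes, for the shHMGA1 experiment (left, 8 libraries a group) and the shCEBPB and shp53 experiment (right, 5 a group). The 4 groups on the left separate by *DCN* to *BGN* except that Grow and OIS-shA1 overlap.

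A ratio of 2 genes within a library does not depend on the scaling between libraries, and so the balance of the class I pair was read directly from the counts. The libraries of Grow had 1.51 to 1.90 *DCN* counts for each *BGN* count, those of Grow-shA1 5.27 to 7.73, those of OIS 0.163 to 0.242 and those of OIS-shA1 1.31 to 2.27. Grow and OIS-shA1 therefore held *DCN* and *BGN* in overlapping proportions, at a summed SLRP level of 389 ± 26.4 against 199 ± 10.8 CPM. The ratio of *DCN* to *LUM* had a median of 1.79 in Grow, 1.86 in Grow-shA1, 1.03 in OIS and 2.27 in OIS-shA1.

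The counts for genes that act on or with SLRPs stand against 35.9% of all genes called in OIS-shA1 against OIS, 74.8% in OIS against Grow and 29.9% in Grow-shA1 against Grow. Of 21 tested enzymes that build chondroitin and dermatan sulphate chains, 8 rose and 3 fell between OIS-shA1 and OIS (median 0.09), among them *UST* (60.0 ± 5.44 against 38.5 ± 2.55 CPM, log2 0.64) and the chondroitin polymerising factor *CHPF* (121 ± 10.5 against 78.3 ± 15.7, log2 0.59). Between OIS and Grow, 13 of these enzymes fell and 2 rose (median -0.42), including *XYLT1*, which starts the chain on the core protein (41.3 ± 4.45 against 171 ± 14.1 CPM, log2 -2.01), and *CSGALNACT1* (log2 -2.33). In growing cells, the knock-down moved 2 up and 5 down of 20 (median 0.01). Of keratan sulphate enzymes, *CHST2*, a sulphotransferase, rose from 12.03 ± 1.666 to 161 ± 18.4 CPM in OIS (log2 3.79), and it was 1 of 4 tested that rose, with *B4GALT4* the 1 that fell (log2 -1.76). *CHST2* fell by 0.41 on the log2 scale between OIS and OIS-shA1, the 1 of 3 tested that was called, and *B4GALT4* by 0.37 between Grow and Grow-shA1, again 1 of 3.

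The next list held proteases known to cut SLRPs and *PCOLCE*, an enhancer of such a protease that does not itself cut. Of its 8 tested genes, 3 rose and 4 fell in OIS, close to the shares over all genes (38.8% and 35.9%). Stromelysin *MMP3* went from 222 ± 79.8 to 5175 ± 708 CPM (log2 4.57), and *BMP1*, which removes the propeptide of biglycan, fell (log2 -1.33). *MMP3* rose further with the knock-down, to 10520 ± 1148 CPM in OIS-shA1 (log2 1.02) and from 222 to 1414 ± 275 in Grow-shA1 (log2 2.67). The list had 4 of 8 higher and 2 lower in OIS and 3 of 7 higher and 1 lower in growing cells. The 1 lower there was *PCOLCE* (log2 -0.69). Of the collagens, 6 of 12 rose and 2 fell between OIS-shA1 and OIS (median 0.18), with *COL1A2* at 0.42 and *COL12A1* at 0.45. Between Grow-shA1 and Grow 1 of 12 rose and 6 fell (median -0.21), with *COL1A1* at -0.60. Of the growth factors and receptors that SLRPs bind, 6 of 8 tested fell and 1 rose in OIS (median -0.83), among them *TGFB2* (152 ± 17.8 to 35.8 ± 5.98 CPM, log2 -2.11) and the decorin receptor *MET* (log2 -1.55). With the knock-down, 2 rose and 2 fell of 8 in OIS, and 2 rose and 4 fell of 9 in growing cells. Of 9 further members of the SLRP family, *TSKU* and *PODNL1*, the closest relative of podocan, were the 2 tested. *PODNL1* fell between Grow and OIS (2.07 ± 0.424 to 0.605 ± 0.259 CPM, log2 -1.58) and between Grow and Grow-shA1 (to 0.895 ± 0.492, log2 -1.23), and *TSKU* by 0.46 and 0.49 on the log2 scale in the same comparisons.

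**Figure D3:**
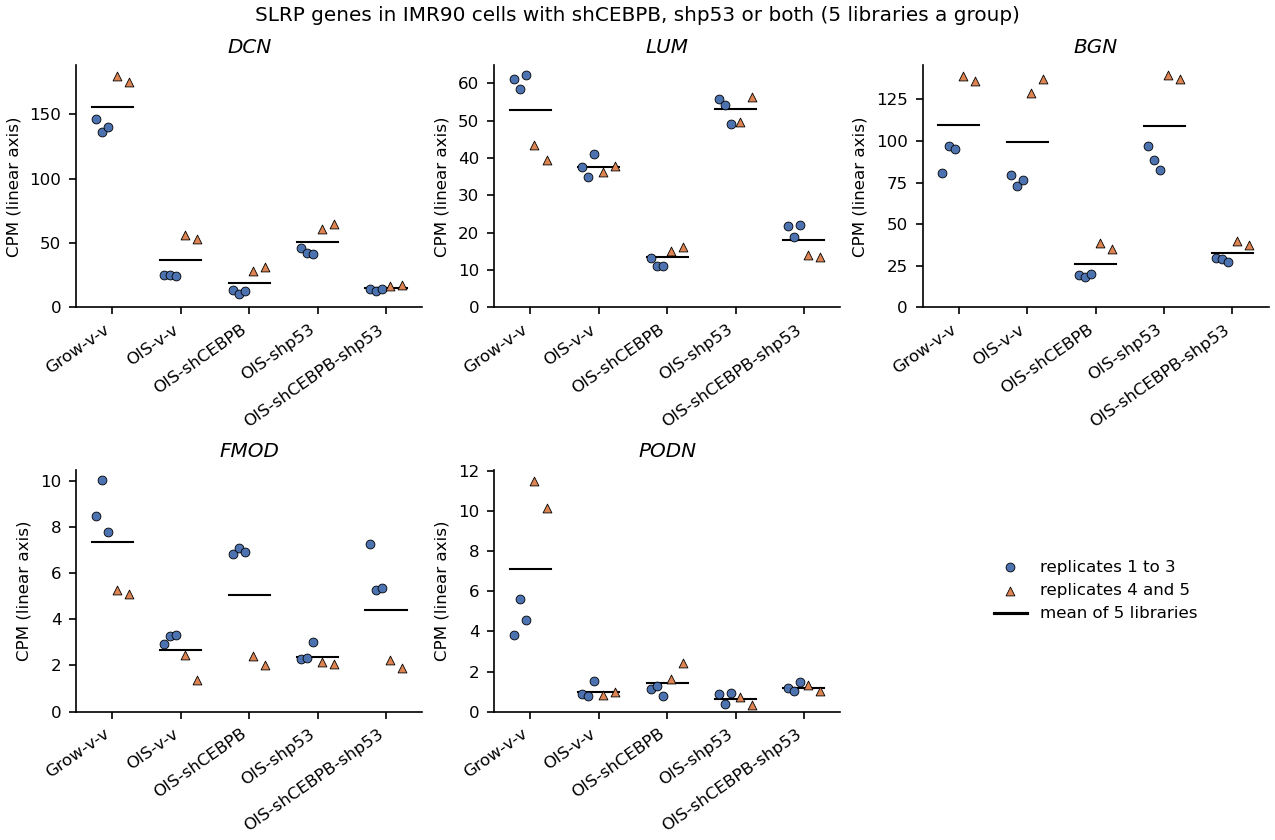
Levels of 5 SLRP genes in the shCEBPB and shp53 experiment, 1 panel a gene, in CPM on linear y axes that start at 0. Circles are replicates 1 to 3, triangles replicates 4 and 5, and lines the mean of 5 libraries. *BGN* is below 41 CPM in both shCEBPB groups and above 73 in the others, in both replicate sets.

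The second experiment repeated the step into OIS with a pair of empty vectors. Of 5 members tested between OIS-v-v and Grow-v-v, 4 fell and none rose, against 45.8% of 13344 genes called (22.7% higher, 23.2% lower), and the median of the 5 was -1.45, beside 0.01. *DCN* went from 136, 140.2, 146, 175 and 180 CPM to 24.7, 24.8, 25.03, 53.3 and 56.2, in ascending order (log2 -2.07, SE 0.25, adjusted p = 2.80e-05). Its 2 upper values in each group were those of replicates 4 and 5, and within the sets the log2 fold change was -2.51 and -1.69. *PODN* fell from 3.81-11.5 CPM to 0.773-1.52 (log2 -2.82, SE 0.35, adjusted p = 3.27e-05), with -2.12 in replicates 1 to 3 and -3.6 in replicates 4 and 5.

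*FMOD* fell from 5.12-10.1 to 1.39-3.34 CPM (log2 -1.45, SE 0.25, adjusted p = 0.000444), with values of -1.47 and -1.42 within the sets. In the first experiment it had risen by 0.33. The tables were scaled separately and the difference was not tested. *LUM* went from 39.5-62.2 to 34.8-41.0 CPM (log2 -0.50, SE 0.13, adjusted p = 0.00741), but the fall was in replicates 1 to 3 (-0.69), and in replicates 4 and 5 alone it was -0.16 (adjusted p = 0.42). *BGN* was 110 ± 26.5 and 99.1 ± 31.3 CPM (log2 -0.14, SE 0.21, adjusted p = 0.632), but replicates 1 to 3 alone gave -0.26 (adjusted p = 0.00166) and replicates 4 and 5 -0.04 (adjusted p = 0.828). The collagens again were lower, 7 of 12 with 2 higher (median -0.54), *CHST2* was higher (31.2 ± 3.15 to 453 ± 116 CPM, log2 3.87) and so was *MMP3* (log2 4.03).

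With shCEBPB in OIS, lumican and biglycan were lower. Between OIS-shCEBPB and OIS-v-v, 2 of 5 members tested were called, both lower, against 17.1% of 13396 genes (9.09% higher, 8% lower). *BGN* went from 73.1, 76.7, 79.5, 129 and 137 CPM to 18.5, 19.7, 20.02, 34.8 and 38.5 (3.77-fold lower, log2 -1.91, SE 0.26, adjusted p = 0.000309). The groups did not overlap, and the 2 sets gave -1.99 and -1.85. *LUM* went from 34.8-41.0 to 11.2-16.3 CPM (2.81-fold lower, log2 -1.49, SE 0.11, adjusted p = 2.13e-06), with -1.70 and -1.23 in the sets.

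Same-numbered libraries deviated together in this experiment, with correlations over genes between 0.132 and 0.674 in the 7 comparisons. All pairs of groups within a replicate set, whatever their numbers, had a median of 0.374, and pairs across the sets -0.437. Pairing by number was therefore not told apart from the set. The replicate number as a block was also fitted, and with it 4 of the 5 members were called. *DCN*, at 24.7-56.2 CPM in OIS-v-v and 10.3-31.6 in OIS-shCEBPB, had a log2 fold change of -0.94 (SE 0.36, adjusted p = 0.102) without the block and -0.97 (SE 0.07, adjusted p = 9.91e-07) with it, and fell in each set (-1.07 and -0.87). *FMOD* was at 2.67 ± 0.800 and 5.06 ± 2.60 CPM (log2 0.92, adjusted p = 0.121; with the block 0.86, adjusted p = 0.00249). This rise came from replicates 1 to 3, at 2.92-3.34 and 6.84-7.09 CPM (log2 1.12). Replicates 4 and 5 were at 1.39-2.45 and 2.03-2.41 (log2 0.21, adjusted p = 0.664). *PODN* was at 0.995 ± 0.304 and 1.44 ± 0.623 CPM (log2 0.53, adjusted p = 0.299), with -0.02 in replicates 1 to 3 (adjusted p = 0.965) and 1.17 in replicates 4 and 5 (adjusted p = 0.0149).

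The SLRP sum fell from 177 ± 46.4 CPM in OIS-v-v to 65.6 ± 19.4 in OIS-shCEBPB (n = 5). Of the collagens, none of 12 fell and 2 rose, *COL1A2* (2336 ± 617 to 3715 ± 214 CPM, log2 0.67) and *COL5A2* (log2 0.55). Among the enzymes of chondroitin and dermatan sulphate, 6 of 21 fell and none rose, including the dermatan sulphate epimerase *DSE* (88.1 ± 10.1 to 59.1 ± 4.08 CPM, log2 -0.58). *CHST2* fell (log2 -1.18) and *B4GALT4* rose (log2 0.34), the 2 tested in their list. *MMP3* fell from 6239 ± 848 to 1325 ± 198 CPM (log2 -2.23). It was 1 of 2 that fell among the 8 tested genes of the protease list, and none rose. Of the binding partners, *MET* rose (log2 1.02) and *EGFR* fell (log2 -0.64), 2 called of 9. *ACTA2* and *LMOD1*, smooth muscle markers, rose (log2 0.89 and 1.40), 2 of 4.

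With shp53 in OIS, lumican was higher. Between OIS-shp53 and OIS-v-v, 1 of 5 members was called, higher, against 4.44% of 13378 genes (2.47% higher, 1.97% lower). *LUM* went from 34.8, 36.1, 37.5, 37.8 and 41.0 CPM to 49.1, 49.6, 54.1, 55.8 and 56.4 (1.42-fold, log2 0.50, SE 0.06, adjusted p = 0.000854). All 5 libraries lay above all of OIS-v-v, and the 2 sets gave 0.49 and 0.52. With the replicate block, *DCN* (36.8 ± 16.4 to 51.1 ± 10.8 CPM, log2 0.47, adjusted p = 0.351) was called at 0.54 (adjusted p = 0.00203) and *BGN* (99.1 ± 31.3 to 109 ± 27.3) at 0.16 (adjusted p = 0.0354), both of them in replicates 1 to 3 (0.81 and 0.23) and not in replicates 4 and 5 (0.19, adjusted p = 0.181; 0.06, adjusted p = 0.71). *FMOD* had -0.17 (adjusted p = 0.721) and *PODN* -0.57 (adjusted p = 0.353). In the gene lists, 1 of 21 chain enzymes fell, and none of 3 keratan sulphate enzymes and none of 9 binding partners was called. *ADAMTS4* rose among 8 genes of the protease list (2.58 ± 0.664 to 5.68 ± 1.77 CPM, log2 1.13) and *COL12A1* among 12 collagens (log2 0.30). Of the markers, 2 of 4 smooth muscle genes fell (*ACTA2* -1.01, *SMTN* -0.26) and 1 of 8 fibroblast genes rose (*PDGFRB* 0.79), and their part in the *LUM* value was not tested.

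With both hairpins, decorin, lumican and biglycan were all lower than in OIS-v-v. Of 5 members 3 were called, all lower, against 33.6% of 13388 genes (17.1% higher, 16.5% lower), with a median of -1.06 beside -0.01. *DCN* ran from 12.9 to 17.7 CPM (log2 -1.28, SE 0.25, adjusted p = 0.00204), *LUM* from 13.4 to 22.01 (log2 -1.06, SE 0.13, adjusted p = 8.61e-05) and *BGN* from 27.03 to 40.03 (log2 -1.60, SE 0.19, adjusted p = 5.98e-05), each with no overlap. *FMOD* was at 1.91-7.26 CPM (log2 0.72, adjusted p = 0.142; with the block 0.66, adjusted p = 0.0135), with the higher values again in replicates 1 to 3 (5.27-7.26) and not in replicates 4 and 5 (1.91-2.25). *PODN* had 0.26 (adjusted p = 0.402). Of the collagens, 5 of 12 rose and none fell, and of the chondroitin and dermatan sulphate enzymes 9 of 21 fell and none rose (*DSE* -0.77). Among 8 genes of the protease list 2 rose (*ADAMTS4* 1.16) and 3 fell (*MMP3* -2.76). Among 4 keratan sulphate enzymes *B4GALT4* rose (0.23) and *CHST2* fell (-1.45), and among 9 binding partners 3 rose (*MET* 1.05) and 3 fell (*TGFB2* -1.10). Markers moved both ways, with 2 of 8 fibroblast genes higher and 1 lower, and 1 of 4 smooth muscle genes higher and 1 lower.

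Against OIS-shp53, the double knock-down had 4 of 5 members called, 1 higher and 3 lower (27.6% of 13428 genes, 14% higher and 13.7% lower). *DCN* fell by 1.76, *LUM* by 1.56 and *BGN* by 1.75 on the log2 scale (SE 0.14, 0.13 and 0.16), and *PODN* rose by 0.82 (SE 0.28, adjusted p = 0.043), a call that was lost when any single library other than OIS-shp53 replicate 1 or 3 was left out (log2 0.67 to 0.88, adjusted p up to 0.0976), with no filter (adjusted p = 0.0643), in either replicate set alone and with all groups in 1 fit (adjusted p = 0.14). *FMOD* had a log2 fold change of 0.88 (adjusted p = 0.061). It was called with the block (0.85, adjusted p = 0.00496) and by DESeq2, which called all 5 members tested. Against OIS-shCEBPB, no member was called by edgeR, 1 of 5 had an unadjusted p under 0.05 and 1 was called by DESeq2, against 14.8% of 13418 genes (8.14% higher, 6.71% lower). *LUM* was at 13.4 ± 2.29 CPM in OIS-shCEBPB and 18 ± 4.097 with both hairpins (log2 0.44, SE 0.16, adjusted p = 0.0809; with the block adjusted p = 0.0349), and its sets went opposite ways, 0.83 and -0.19. *BGN* had 0.31 (adjusted p = 0.337; with the block 0.35, adjusted p = 0.00449), and *DCN* -0.33 (adjusted p = 0.458), with 0.22 and -0.81 in the sets.

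The test of whether the hairpins acted other than additively called no member by edgeR. None had an unadjusted p under 0.05 and DESeq2 called none, and over 13873 genes 0.0432% were called (0.0216% higher, 0.0216% lower). The value for *DCN* was -0.80 (SE 0.42, adjusted p = 0.999; -0.78 with the block, adjusted p = 0.0594), and within the sets it was -0.58 (adjusted p = 0.00373) and -1 (adjusted p = 1.49e-05). For *LUM* the sets were opposed, 0.34 and -0.71. Against growing cells, the double knock-down had 4 of 5 members called lower and none higher (49.9% of 13395 genes, 24% higher and 25.8% lower): *DCN* at -3.34 on the log2 scale (10.2-fold, SE 0.11, adjusted p = 1.06e-09), *PODN* at -2.55, *BGN* at -1.74 and *LUM* at -1.55, while *FMOD* was at -0.73 (adjusted p = 0.0864; with the block -0.79, adjusted p = 0.0051). These comparisons share groups, and their values are given side by side for that reason alone.

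**Figure D4:**
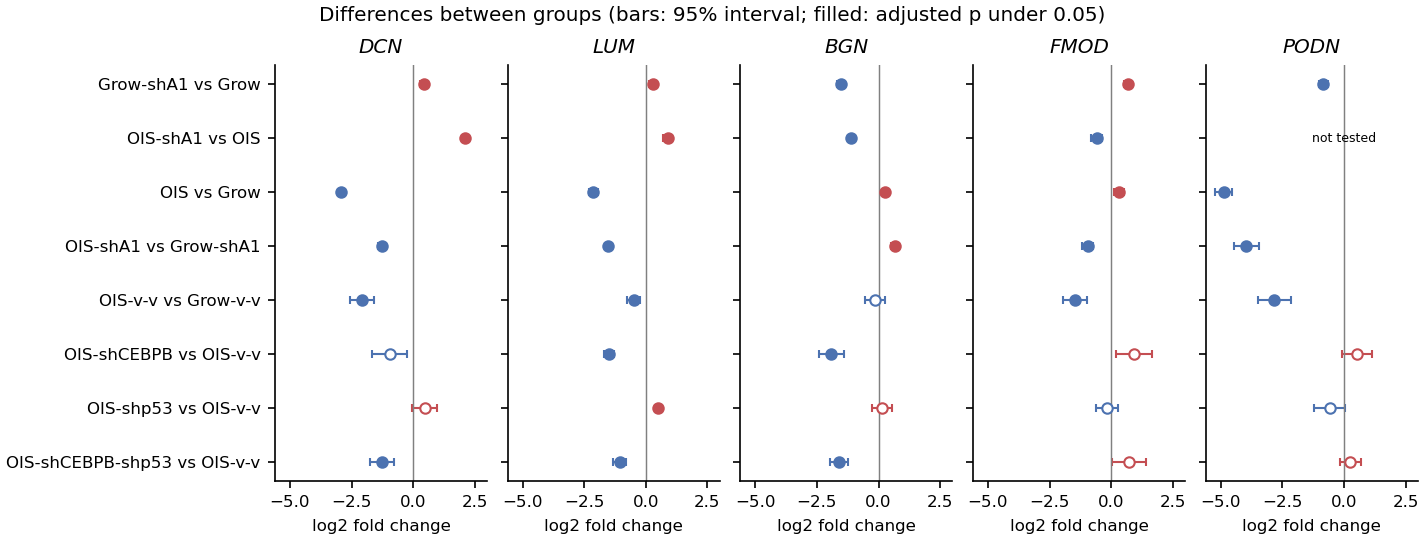
Differences between groups for 5 SLRP genes in 8 comparisons of IMR90 cells. The x axis is the log2 fold change of the first group over the second, and points are edgeR estimates. Bars are approximate 95% intervals, the SE times a normal quantile, and are narrower than the F test gives. Filled points have an adjusted p under 0.05, and colour gives the sign. *BGN* moved by -1.54 and -1.11 with shHMGA1, by -1.91 with shCEBPB alone and by -1.60 with both shCEBPB and shp53. With shp53 alone it had 0.14 (not called), and on entry into OIS of vector cells 0.25 and -0.14.

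The level of each gene could be put in order over the IMR90 groups. In the first experiment *DCN* ran Grow-shA1, Grow, OIS-shA1, OIS from high to low, and *BGN* ran OIS, Grow, OIS-shA1, Grow-shA1. For both, the first and the last pair of neighbours differed by the tests above, and Grow and OIS-shA1, which were not tested against each other, did not overlap. *FMOD* ran Grow-shA1 (13.9 ± 1.28 CPM), OIS (10.9 ± 1.86), Grow (8.60 ± 1.37), OIS-shA1 (7.04 ± 1.55). Of these neighbours OIS and Grow were tested and differed, and the libraries of Grow and OIS-shA1 overlapped. Among the genes with the pattern most like each member over the 32 libraries, of 10186 genes outside the list at 5 CPM or more, were *PGAP4*, *SLC16A4* and *SCMH1* for *DCN* (Pearson r of log2 CPM 0.96 for each), *C12orf75* and *FGD4* for *LUM* (0.98 for each), *FBXO42*, *CAMK2N1* and *COG4* for *FMOD* (0.77, 0.76 and 0.75) and *ACTA2*, *GALNT5* and *CORO1C* for *PODN* (0.97 for each). For *BGN* they were *HMGA1* itself, the target of the hairpin (0.96), *NPTXR* (0.95) and *TRIR* (0.94). The libraries form 4 groups, so these values mostly restate group means. Over the 25 libraries of the second experiment, where no hairpin targeted *HMGA1* (914.9 to 1887 CPM), the r of *BGN* with *HMGA1* was -0.15, that of *LUM* with *FGD4* 0.45, and that of *PODN* with *ACTA2* 0.90. Among the members, *DCN* and *LUM* ran together in both experiments (r = 0.93 and 0.79), while *DCN* and *BGN* had r = -0.63 in the first and 0.83 in the second.

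H1299 cells made hardly any SLRP transcripts. *LUM* and *FMOD* had 0 counts in all 13 libraries, which allows up to 0.127 to 0.169 CPM a library, *BGN* had 1 count in all, *OMD* 1, *ASPN* 3, *PODN* 4, *OGN* 6 and *PRELP* 10. *DCN*, with 134 counts, was the single member that could be tested. It ran from 0.292 to 0.814 CPM in H1299 and from 0.256 to 0.730 in H1299-shA1 (log2 0.30, SE 0.28, adjusted p = 0.504), an approximate 95% interval of -0.24 to 0.84. No member was called by edgeR or DESeq2 and none had an unadjusted p under 0.05, against 15.6% of 14840 genes (8.65% higher, 6.93% lower), although *HMGA1* was reduced from 1887 ± 97.3 (n = 7) to 379 ± 34.1 CPM (n = 6). *TSKU* was the SLRP family gene with the most counts there, at 9.56 ± 0.761 and 10.9 ± 1.31 CPM.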

How the data were processed

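RNA was measured by poly(A) RNA-seq in 70 libraries. The deposited tables hold raw counts per gene, which the authors made with STAR on hg19 and with featureCounts on GENCODE exons, without strand and without multi-mapping reads; the first table counted fragments and the H1299 table reads, and the depth was 1903607 to 24890797 counts a library. In R 4.3.3, counts were filtered with filterByExpr (minimum count 10), scaled by TMM and tested with edgeR 4.0.16 (quasi-likelihood, the groups compared alone, Benjamini-Hochberg adjusted p under 0.05); interactions used 4 groups in 1 fit. The SE is the log2 fold change over the root of F. Alternatives were DESeq2 1.42.0, other scaling, filters and limits, a replicate block, and left-out libraries; the split into replicates 1 to 3 and 4 and 5 was chosen after seeing the data. Same-numbered libraries were correlated by over 0.1 in every pair of the second experiment, so there the blocked values are given where a call changes. Whether the number pairs libraries beyond the replicate set was not tested. In the first experiment and in H1299 same-numbered libraries were not so correlated. The labels speak of 6 biological replicates a condition, whereas the groups hold 8, 5, 7 or 6 libraries, so some libraries may share a culture and p-values measure the spread between libraries, which may be technical in part. Which library had which kit or sequencer is not given in the sources used here. Floors cover counting error only, and the 95% intervals of fold changes come from the SE, which includes the spread between libraries. These intervals are approximate: they use a normal quantile and are narrower than the F test gives. For *FMOD* in the double knock-down against OIS-v-v the interval was 0.0215 to 1.42, with an unadjusted p of 0.066 by edgeR. The 9 genes and the gene lists were chosen with earlier results of these data known. Named genes outside the 9 were the knock-down targets, up to 3 of each list with the largest called change at 1 CPM or more (reported in part), and the 3 most alike genes; some of these are not reported here. Symbols matched 42662 of 44503 genes (95.9%) and 120 of 121 list genes.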

Additional observations from a re-analysis of the deposited data

Results flagged for a closer look

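Among 41 sets of a gene and a group with a mean of 1 CPM or more, 2 libraries lay farther from the rest than Dixon's 95% limit allows, a rate that chance gives in about 1 of 20 sets. *LUM* in OIS replicate 4 was 40.95 CPM, against 16.8 to 24.6 in the other 7 libraries; this library held 1903607 counts, and the part of its depth was not tested. *FMOD* in Grow replicate 5 was 11.5 CPM, against 6.99 to 8.99 in the others.

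The effect of shHMGA1 differed between OIS and growing cells for 4 genes by the interaction test: *DCN* by 1.66, *LUM* by 0.62, *BGN* by 0.43 and *FMOD* by -1.27 on the log2 scale (adjusted p = 5.61e-15, 0.000162, 0.00146 and 3.33e-08, edgeR). For *FMOD* the direction itself differed, 0.69 in growing cells and -0.59 in OIS.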

How the results depend on the processing

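Over 67 results of a gene in a comparison, 549 of the values under alternatives other than left-out libraries kept direction and call, 13 lost the call, 33 gained it and 9 changed sign; with a library left out, 945 stayed, 8 lost the call, 12 gained it and 10 changed sign. At a fold change of at least 1.5, the members called went from 5 to 3 in Grow-shA1 against Grow, from 5 to 3 in OIS against Grow, from 4 to 3 in the interaction of shHMGA1 with OIS and in OIS-v-v against Grow-v-v, and from 1 to 0 in OIS-shp53 against OIS-v-v. The replicate block gave 4 members in OIS-shCEBPB against OIS-v-v (2 without it), 3 in OIS-shp53 against OIS-v-v (1), and 2 in the double knock-down against OIS-shCEBPB (0). DESeq2 gave 1 in the last. Beyond these 3 comparisons, the block changed no other call than those of *FMOD* in the double knock-down given above. Replicates 1 to 3 alone gave 4, 3 and 2 members in these 3 comparisons and 2 in the interaction of both hairpins; replicates 4 and 5 alone gave 4 in OIS-shCEBPB, 1 in the double against OIS-shCEBPB and 2 in the interaction. With single libraries left out, OIS-shCEBPB gave 2 to 4, reaching 4 without OIS-shCEBPB replicate 5, and the double against OIS-shCEBPB 0 to 1, reaching 1 without replicate 5 of either group.

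No called value changed sign. Those that did were *PODN* in OIS-shCEBPB (-0.024 in replicates 1 to 3), *FMOD* in OIS-shp53 (0.14 in replicates 4 and 5), in the double against OIS-shCEBPB *DCN* (0.22 in replicates 1 to 3), *PODN* (0.20 in replicates 1 to 3) and *LUM* (-0.19 in replicates 4 and 5), *FMOD* in the double against OIS-shp53 (-0.0324 in replicates 4 and 5), and in the interaction *LUM* (0.34) and *FMOD* (0.10) in replicates 1 to 3 and *PODN* (-0.0827) in replicates 4 and 5. With a library left out, the interaction ran from -0.15 to 0.0247 for *LUM* and from -0.28 to 0.16 for *FMOD*. The cause was not tested. Depth limited the low genes: OIS replicate 4 detects nothing under 1.58 CPM at 3 counts.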

Other observations

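The genes around each SLRP locus, within 500 kb on either side, were counted to describe the surroundings. Over all genes, 74.8% were called in OIS against Grow, 35.9% in OIS-shA1 against OIS and 29.9% in Grow-shA1 against Grow, and the counts below say nothing particular of a locus. None of the 8 other genes around *DCN* and *LUM* passed the filter on low counts, so these were the 2 expressed genes of the stretch. Around *BGN*, 14 genes were tested between OIS and Grow, of which 5 were higher and 4 lower, and between OIS-shA1 and OIS 1 was higher and 1 lower. Around *FMOD* and *PRELP*, 11 genes were tested between OIS-shA1 and OIS, of which 4 were lower and none higher, and between Grow-shA1 and Grow 1 was higher and 5 lower. Around *PODN*, 12 genes were tested between OIS and Grow, 4 higher and 6 lower, with values from -2.56 to 0.91 on the log2 scale.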
